A study of Mus musculus with 12 samples.

Results

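Libraries labelled as skull taken 6 days after photothrombosis (PT) of the brain were compared with libraries labelled as skull taken 2 days after it, in the 3 RNA-seq libraries named BS6 and the 3 named BS2, which the study's text calls B6S and B2S. The members were chosen by the column names of the count table and not by any measured value, and they were 6 of the 12 libraries analysed here. In PT a light-sensitive dye, Rose Bengal, is given into the blood and a laser closes the vessels under its spot. Both groups came from wild-type male BALB/c mice aged 8 weeks, both had received dye and laser on the brain, both are labelled interparietal bone, the plate at the back of the skull roof, and both were cut so as to hold the ischemic and peri-ischemic region. They carried no transgene, and the labels set them apart only by the day. The methods give 3 biological replicates per group but do not tie a library to a mouse, so p-values measure the spread between these libraries. Uninjured skull was not analysed here, and a difference between the days is therefore not a difference from a control.

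The skull roof is flat bone that forms without a cartilage model. Osteoblasts lay down type I collagen and mineralize it, osteocytes sit buried in the matrix, osteoclasts dissolve it, and the sutures and the periosteum hold the mesenchymal cells that renew it. Between the bony tables lies marrow in which neutrophils, red cells, platelets and B cells are made. Below the skull roof follow the meninges and the brain. In the cerebral cortex, projection neurons release glutamate and interneurons release GABA.

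Sequencing depth was alike in both groups, with 14126082 to 16988400 counts per library in BS2 and 15378006 to 16544798 in BS6, and levels are given as CPM, a count relative to its library total after adjustment by TMM factors of 0.952 to 1.05. Values are listed in the order of replicates 1, 2 and 3. Checked against its markers, the tissue label held for BS6 and not for BS2. The osteoblast transcripts were nearly absent from the libraries labelled BS2, where the summed level of 10 osteoblast genes was 142 to 193 CPM against 52050 to 197700 CPM in BS6. A list of 12 neuron genes went the other way, with 12580 to 12870 CPM in BS2 and 173 to 199 CPM in BS6. Every difference reported here between the days was thus also a difference between libraries with cortical transcripts and libraries with bone and marrow transcripts, and the day and the tissue content cannot be told apart. In bulk RNA, fewer cells of a type and less RNA per cell cannot be told apart either.

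The BS2 libraries were nearly alike (Spearman's rho of log2 CPM over genes 0.994 to 0.995), whereas BS6 replicate 2 stood apart from the other BS6 libraries. It had a correlation of 0.949 with replicate 1 and 0.955 with replicate 3, which correlated with each other at 0.986. Of 15355 genes whose BS6 mean reached 1 CPM, 592 were more than 3-fold above the mean of the other 2 libraries in replicate 2 and 245 more than 3-fold below it, against 64 and 315 in replicate 1 and 59 and 255 in replicate 3. Among 15107 such genes in BS2, 11, 2 and 2 lay outside 3-fold in replicates 1, 2 and 3. Genes that set the BS6 libraries apart are described by cell type below, for some of them with values without the library concerned.

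Among 17311 genes tested with edgeR's quasi-likelihood test, 5020 (29.0%) were higher and 4590 (26.5%) lower in BS6, where a call needed a Benjamini-Hochberg adjusted p below 0.05 and a log2 fold change beyond 1 in size, and 7701 were not called. The share called in either direction was 55.5%, and for 80.7% of the genes the 3 libraries of one group did not overlap with the 3 of the other. The median log2 fold change of all genes tested was 0.02. The counts of list members given below are read against these shares. Without BS6 replicate 2, 5100 genes were higher and 4808 lower. The groups shared most of their expressed genes, with 12783 genes at 1 CPM or more in all 6 libraries out of 14506 at that level in all of BS2 and 14507 in all of BS6. The size of the differences was large all the same. By the fitted value 355 genes were over 100-fold higher and 346 over 100-fold lower, 44 genes at 1 CPM or more in every BS2 library had no count in BS6, and 49 showed the reverse.

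**Figure D1:**
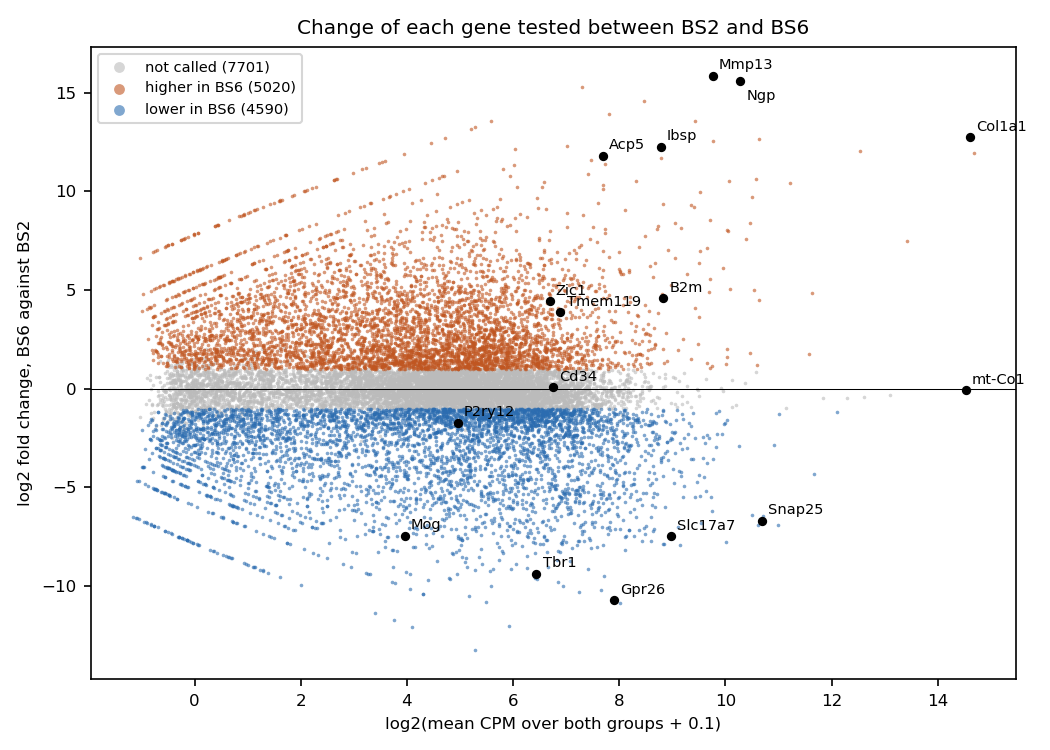
Fitted log2 fold change of BS6 against BS2 (vertical) for each of 17311 genes tested, over the log2 of its mean CPM in both groups plus 0.1 (horizontal). Orange points are the 5020 genes called higher, blue points the 4590 called lower, grey points the 7701 not called, and black points are named genes; the stripes at the left are genes with few or no counts in one group, whose fitted value depends on the prior count.

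The highest genes of BS6 by fold were a collagenase, proteins of neutrophil granules and type I collagen. Mmp13, which cleaves fibrillar collagen (chr9:7272514-7283331 of mm10, plus strand), had 1 count in BS2 and 2119, 819 and 2259 CPM in BS6, a ratio of 81042 with a 95% interval of 14545 to 3201000 that covers counting error only. Col1a1, which encodes a chain of type I collagen (chr11:94936224-94953042, plus strand), was at 3.85, 9.21 and 8.46 CPM in BS2 and 54444, 18355 and 76541 CPM in BS6, a log2 fold change of 12.76 (standard error 0.92, adjusted p = 4.33e-05). The lowest genes were neuronal. Cacng3, an auxiliary subunit of AMPA receptors (chr7:122670492-122769393, plus strand), was at 121, 123 and 120.1 CPM in BS2 and had 1 count in all of BS6. Gpr26, an orphan receptor of the brain, was at 475, 453 and 507 CPM in BS2 and 0.197, 0.369 and 0.254 CPM in BS6 (log2 fold change -10.72, standard error 0.22). Grin2b, an NMDA receptor subunit, was at 482, 455 and 486 CPM in BS2 and 0.328, 0.492 and 0 CPM in BS6, and its fold change of -10.71 was -11.44 without BS6 replicate 2 and -10.14 without BS6 replicate 3, which had no count of it. These genes were picked among called genes whose libraries did not overlap between the groups, which held for 80.7% of all genes tested.

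Neuron transcripts were lower in BS6 without exception in the general neuron list, where 12 of 12 genes were called lower, with a median log2 fold change of -6.75. Snap25, a SNARE protein of synaptic vesicle fusion (chr2:136713453-136782428, plus strand), was at 3283, 3271 and 3271 CPM in BS2 and 16.5, 54.4 and 24.9 CPM in BS6, with a log2 fold change of -6.68 (standard error 0.54, adjusted p = 6.55e-05) and of -7.30 without BS6 replicate 2, its highest BS6 library. Syt1, the calcium sensor of synaptic vesicles, was at 2051, 1926 and 2163 CPM in BS2 and 7.03, 12.1 and 9.47 CPM in BS6 (log2 fold change -7.74, standard error 0.28). Camk2a, a kinase of the excitatory synapse, differed from most of the list in being lowest in BS6 replicate 2, at 32.6, 18.8 and 26.3 CPM. Eno2, the neuronal enolase, kept the highest BS6 level of the list relative to BS2, at 798, 871 and 831 CPM in BS2 and 87.01, 58.4 and 79.2 CPM in BS6 (-3.48, standard error 0.19).

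The BS2 libraries carried markers of the cerebral cortex. Of 13 projection neuron genes 10 were lower in BS6, 1 was higher and 2 were not called (median -5.64). Slc17a7, the glutamate transporter of cortical synaptic vesicles, was at 965, 1085 and 959.7 CPM in BS2 and 5.38, 7.93 and 3.69 CPM in BS6. Tbr1, a transcription factor of deep-layer neurons, was at 164, 179.7 and 175 CPM in BS2 and 0.525, 0 and 0.254 CPM in BS6, a log2 fold change of -9.36 that became -10.34 without BS6 replicate 1 and -8.76 without BS6 replicate 2. Fezf2 and Emx1, transcription factors of the same region, had 1 count each in all of BS6, against 39.9, 34.5 and 43.03 CPM and 25.6, 30.4 and 22.2 CPM in BS2. Some markers of other brain regions were present in BS2 as well, and others were low there. In BS2 the striatal genes Ppp1r1b and Drd1 were at 54.9, 65.3 and 44.9 CPM and 6.24, 6.204 and 6.12 CPM, and the hippocampal genes Wfs1 and Prox1, which other cells also use, at 73.1, 91.6 and 78.2 CPM and 20.7, 17.7 and 16.2 CPM. Other striatal genes were low in BS2, with Drd2 at 0.758, 1.38 and 0.782 CPM and Adora2a at 1.11, 2.07 and 2.13 CPM. Slc17a6, the vesicular glutamate transporter of thalamus, was at 41.6, 33.9 and 43.3 CPM in BS2 and 12.1, 8.43 and 19.5 CPM in BS6 (-1.57). Tcf7l2 and Prkcd of the same list were lower than that in BS2, at 3.67, 3.89 and 4.55 CPM and 5.65, 8.08 and 8.11 CPM. Both were higher in BS6 (2.59 and 4.77). In the striatum list 5 of 8 genes were lower in BS6 and 1 higher, in the hippocampus list 5 of 7 lower, and in the thalamus and midbrain list 1 of 6 lower and 3 higher.

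Some transcription factors of the projection neuron list did not follow the others. Bcl11b, a factor of deep-layer neurons and of T cells, was at 52.7, 56.7 and 58.04 CPM in BS2 and 42.9, 8.67 and 28.5 CPM in BS6 and was not called (-1.06, adjusted p = 0.102 from edgeR), but was lower without BS6 replicate 1 (-1.58, adjusted p = 0.0316). Foxp2, a factor of deep-layer and striatal neurons, was the projection neuron gene that was higher in BS6, at 13.3, 13.6 and 12.9 CPM in BS2 and 32.2, 33.03 and 30.1 CPM in BS6 (1.26 (standard error 0.11, adjusted p = 7.18e-05)).

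Interneuron genes were lower in BS6, and what remained of them came mostly from one library. Of 9 genes 8 were lower and 1 was not called. Gad1 and Gad2, which make GABA, were at 445, 395 and 433 CPM and 235, 205 and 234 CPM in BS2. In BS6 they were at 1.12, 26.02 and 0 CPM and 0, 6.52 and 0 CPM, so that nearly all of their BS6 counts came from replicate 2. Their log2 fold changes were -5.55 and -6.67. Without BS6 replicate 2 Gad1 was at -9.56, and Gad2, then with no count in BS6, was at least 2315-fold lower than in BS2. Slc32a1, which loads GABA into vesicles, had the same pattern at 0, 6.15 and 0.0636 CPM, and its call was lost without BS2 replicate 2 (adjusted p = 0.0535 from edgeR, log2 fold change -4.35), and without BS6 replicate 2 it had 1 count in BS6, a BS2 to BS6 ratio of 1389 with a counting interval of 249 to 54900. Vip and Dlx1, a peptide and a transcription factor of cortical interneurons, were near 0 in all 3 BS6 libraries instead, at 0.0657, 0.123 and 0.0636 CPM and 0.0657, 0.246 and 0.0636 CPM. Pvalb, a calcium buffer of both interneurons and fast muscle, was not called (-1.12) but was lower without BS6 replicate 3 (-1.59, adjusted p = 0.0379 from edgeR), at 56.6, 59.1 and 51.9 CPM in BS2 and 8.14, 28.9 and 39.8 CPM in BS6.

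The GABA genes of BS6 replicate 2 were accompanied by markers of cerebellum. Pcp2, a Purkinje cell protein, was at 0.0657, 4.74 and 0 CPM in BS6 and 0.291, 0.125 and 0.213 CPM in BS2. Ppp1r17, another Purkinje cell gene, had 62 counts in BS6, all in replicate 2, and none in BS2. Cbln3, a secreted partner of cerebellin in granule cells, was at 0.233, 0.439 and 0.711 CPM in BS2 and 0.788, 14.9 and 1.46 CPM in BS6, and its call (log2 fold change 3.64) was lost without any single BS2 library (adjusted p 0.0794 to 0.106 from edgeR, log2 fold change 3.29 to 4.05) and was 1.32 without BS6 replicate 2. Cbln1, which joins parallel fibres to Purkinje cells, was at 9.499, 4.14 and 7.397 CPM in BS2 and 1.58, 12.4 and 2.098 CPM in BS6 and was not called, but was lower without BS6 replicate 2 (-1.92, adjusted p = 0.00206 from edgeR). Of the 6 genes of the cerebellum list tested 4 were higher in BS6 and 0 lower. Beside Cbln3 these were En2 (log2 fold change 1.905, and 1.785 without BS6 replicate 2), Zic1 and Gdf10. Zic1 and Gdf10 did not follow replicate 2. They were high in all 3 BS6 libraries, with 4.895, 10.5 and 11.7 CPM in BS2 and 209, 168 and 214 CPM in BS6 for Zic1, a transcription factor of granule cells and of meninges, and 5.07, 5.08 and 3.41 CPM in BS2 and 167, 180.03 and 297 CPM in BS6 for Gdf10, a growth factor related to the bone morphogenetic proteins (log2 fold changes 4.45 and 5.56).

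Most genes of oligodendrocytes and astrocytes were lower in BS6. Of 12 oligodendrocyte genes 11 were lower (median -5.28) and of 11 astrocyte genes 7 (median -2.79), while Agt, the angiotensin precursor, was higher, at 2.86, 2.51 and 2.92 CPM in BS2 and 3.94, 8.61 and 4.58 CPM in BS6 (1.05, adjusted p = 0.0272 from edgeR). Mog, a myelin protein found only in the central nervous system, was at 29.5, 32.02 and 30.6 CPM in BS2 and 0.0657, 0.369 and 0.0636 CPM in BS6 (-7.44), and without BS6 replicate 2 it had 2 counts in BS6, a BS2 to BS6 ratio of 475 with a counting interval of 131 to 3927. Slc1a2, which clears glutamate from the synapse, was at 4241, 3738 and 4076 CPM in BS2 and 25.7, 67.7 and 8.84 CPM in BS6 (-6.88, and -7.86 without BS6 replicate 2). Aldoc, an aldolase of astrocytes and Purkinje cells, was at 529.5, 537 and 481 CPM in BS2 and 10.4, 98.5 and 6.42 CPM in BS6, and its fold change of -3.74 became -5.93 without BS6 replicate 2. Members shared with other tissues did not pass, among them Cldn11, a tight junction protein of myelin and of the meningeal barrier, at 82.1, 75.9 and 69.2 CPM in BS2 and 41.5, 110.3 and 72.1 CPM in BS6, and Fgfr3, a receptor of astrocytes and of growing cartilage and bone, at 84.4, 78.6 and 73.05 CPM in BS2 and 95.1, 87.1 and 174 CPM in BS6. The summed oligodendrocyte list was highest in BS6 replicate 2, at 182, 424 and 201 CPM in BS6, as was the summed astrocyte list at 642, 1249 and 765 CPM.

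The genes of Schwann cells, which make the myelin of peripheral nerve, were divided. Prx and Ncmap, which Schwann cells use to stabilize myelin, were higher in BS6, at 13.7, 24.97 and 15.003 CPM against 2.098, 2.13 and 1.99 CPM and 3.22, 7.38 and 4.58 CPM against 0.816, 0.501 and 0.782 CPM. Pmp22, a membrane protein of peripheral myelin, was at 15.9, 20.99 and 16.7 CPM in BS2 and 134, 137 and 135 CPM in BS6. Drp2 and Sox10, which the brain also expresses, were lower (-2.71 and -1.70), so that of 8 Schwann cell genes 4 were higher and 2 lower.

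The genes of the bone-forming cells were higher in BS6 with 1 exception among those of osteocytes. All 10 osteoblast genes tested were called, with a median log2 fold change of 9.72, and 5 of 6 osteocyte genes (median 4.83). Ibsp, bone sialoprotein (chr5:104299171-104311469, plus strand), was at 0.117, 0.188 and 0.213 CPM in BS2 and 809.98, 499.9 and 1323 CPM in BS6 (12.27 (standard error 0.60, adjusted p = 1.10e-05)). Runx2, the transcription factor that commits cells to bone, was at 13.1, 14.9 and 14.7 CPM in BS2 and 195, 123 and 262 CPM in BS6 and had the smallest change of the list (3.77). Dmp1, a matrix protein of osteocytes, was at 2.04, 1.38 and 0.925 CPM in BS2 and 129.8, 120 and 164 CPM in BS6, and Sost, the osteocyte inhibitor of bone formation, had 2 counts in BS2 and was at 7.42, 1.85 and 10.04 CPM in BS6. Replicate 3 had the highest level of 9 of the 10 osteoblast genes and replicate 2 the lowest of 8, and the summed level was 138700, 52050 and 197700 CPM. Spp1, osteopontin, which macrophages and osteoclasts also make, and Omd, a small proteoglycan of bone, were lowest in replicate 1 instead, at 2107, 3302 and 3705 CPM and 134, 175 and 259 CPM.

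Mineralization needs phosphate and the removal of its inhibitor pyrophosphate, and 7 of 9 genes listed for it were higher. Alpl, the phosphatase that splits pyrophosphate, was at 3.56, 6.58 and 6.33 CPM in BS2 and 337, 284 and 541 CPM in BS6 (6.14, standard error 0.40). Enpp1, which makes pyrophosphate, was at 2.04, 2.57 and 2.703 CPM in BS2 and 69.9, 25.5 and 62.6 CPM in BS6 (4.43). Ank, which carries pyrophosphate out of the cell, was not called at 205, 206 and 202 CPM in BS2 and 140.3, 90.05 and 173 CPM in BS6, and Slc20a1, a phosphate transporter, was lower, at 131, 139 and 140.3 CPM in BS2 and 59.7, 48.1 and 34.9 CPM in BS6 (-1.52, adjusted p = 5.09e-04 from edgeR). Smpd3, a sphingomyelinase of mineralizing cells, was at 56.2, 61.2 and 60.2 CPM in BS2 and 119, 82.1 and 346 CPM in BS6. Its call (1.62) was lost without any single BS2 library (adjusted p 0.0823 to 0.0884 from edgeR, log2 fold change 1.56 to 1.63) and, without BS6 replicate 3, by its fold change of 0.76.

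Osteoclast genes were higher in 11 of 12 cases (median 6.56). Ctsk, the collagen-degrading protease of the resorption pit, was at 3.73, 3.95 and 4.48 CPM in BS2 and 1356, 399 and 1669.6 CPM in BS6 (8.14, standard error 0.67). Atp6v0d2 and Ocstamp, which serve acid secretion and cell fusion, had no count in BS2 and were at 108, 27.002 and 97.3 CPM and 27.98, 5.41 and 22.2 CPM in BS6, respectively at least 1204-fold higher and at least 287-fold higher than a floor of 3 counts over the group. Mmp9, a gelatinase of osteoclasts and neutrophils, was at 890.5, 914 and 898 CPM and nearly equal in the BS6 libraries, whereas Ctsk was lowest and the neutrophil granule genes highest in replicate 2. Clcn7, a chloride transporter of the resorption pit that many cells use, was the member not called, at 58.5, 56.03 and 55.6 CPM in BS2 and 97.6, 79.5 and 98.3 CPM in BS6.

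Genes of the mesenchyme of sutures, periosteum and fascia were higher in BS6 and uneven within it. Of the suture and periosteum list 11 of 12 genes were higher (median 7.43), and all 12 were lowest in replicate 2 among the BS6 libraries. Postn, a matrix protein of periosteum, was at 2.098, 1.19 and 1.14 CPM in BS2 and 2068, 319 and 2031 CPM in BS6 (9.94, standard error 0.98). Twist1, a transcription factor that keeps sutures open, was at 0.233, 0.313 and 0.285 CPM in BS2 and 114, 56.2 and 159 CPM in BS6. Gli1, a hedgehog target that marks suture stem cells, was at 2.21, 3.57 and 2.42 CPM in BS2 and 43.5, 31.2 and 43.2 CPM in BS6, while Axin2, a Wnt target that marks them too, was not called at 25.7, 25.2 and 25.96 CPM in BS2 and 17.7, 11.9 and 13.8 CPM in BS6. Col3a1, a fibrous collagen and one of the 10 most abundant genes of BS6, was at 21264, 2029 and 12101 CPM there against 1.34, 4.7002 and 2.42 CPM in BS2, and its fold change of 12.03 became 11.66, 11.30 and 12.54 without BS2 replicate 1, BS6 replicate 1 and BS6 replicate 2. Of the tendon and fascia list 8 of 9 genes were higher, and Pi16, a marker of fascia fibroblasts, was highest in replicate 2, at 29.1, 207 and 42.9 CPM.

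Cartilage and muscle genes were present in BS6 at unequal levels. Of 8 chondrocyte genes tested 6 were higher. Col2a1, the collagen of cartilage, was at 1.05, 0.689 and 0.996 CPM in BS2 and 46.8, 19.99 and 35.9 CPM in BS6, whereas Sox9, the transcription factor that directs it and that astrocytes also express, was lower in BS6, at 26.1, 23.3 and 21.4 CPM in BS2 and 7.81, 7.87 and 11.2 CPM in BS6 (-1.40). Skeletal muscle genes were highest in BS6 replicate 3 for all 12 members at 1 CPM or more, and their summed level was 135, 202 and 1029 CPM in BS6 against 21.1, 19.8 and 18 CPM in BS2. Myh1, a myosin of fast fibres, was at 3.56, 3.13 and 2.63 CPM in BS2 and 18.6, 62.9 and 237 CPM in BS6, and its fold change of 5.09 was 3.71 without replicate 3. Myh2, another fast myosin, did not pass (2.53, adjusted p = 0.0834 from edgeR) and was at 0.05 without it. It passed without BS6 replicate 1 (3.04, adjusted p = 0.0382 from edgeR). Of 12 members 11 were called, and these were also called without BS6 replicate 3. The calls of Acta1, the actin of skeletal muscle, and Mb, myoglobin, were lost without any single BS2 library (adjusted p 0.0656 to 0.0735 and 0.0512 to 0.0573 from edgeR, log2 fold change 3.25 to 3.46 and 4.49 to 5.16), and their fold changes of 3.36 and 4.89 were 1.40 and 2.54 without BS6 replicate 3.

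**Figure D2:**
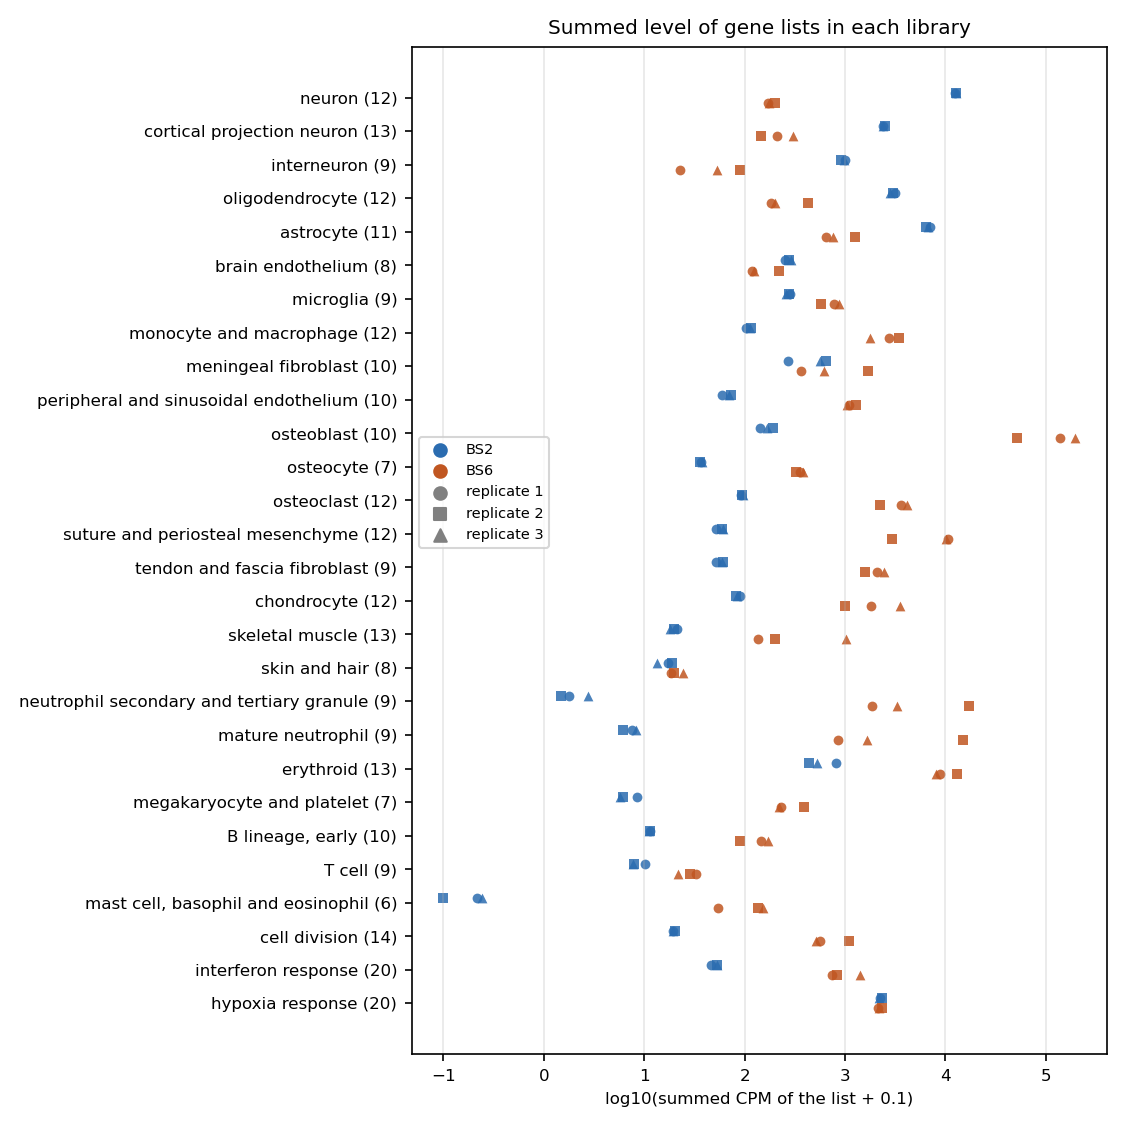
Summed CPM of each gene list (number of genes in brackets) in each library, as log10 of the sum plus 0.1; blue marks BS2, orange BS6, and the shape the replicate. Neuron, oligodendrocyte and astrocyte sums lie to the right in BS2 and bone, muscle, blood and cell division sums to the right in BS6. Hypoxia, skin and meningeal sums overlap between the groups, although 5 of 10 meningeal genes were called higher and 0 lower. BS6 replicate 2 (orange squares) is lowest for osteoblast genes and highest for neutrophil genes.

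Neutrophil genes were higher in BS6 in every member tested, and nearly all were highest in replicate 2. All 9 genes of the secondary and tertiary granules were called, with a median log2 fold change of 13.56, or 12.32 with genes at 0 held at their bound. Their summed level was 1875, 17080 and 3318 CPM in BS6 against 1.69, 1.38 and 2.63 CPM in BS2. Ngp, a granule protein of developing neutrophils (chr9:110419747-110423012, plus strand), was at 373, 6055 and 1016 CPM in BS6 and had 2 counts in BS2. Ltf, the iron-binding lactoferrin, was at 248, 3346 and 555 CPM, and its fold change of 13.56 was 11.79 without BS6 replicate 2 and 12.93 without BS2 replicate 1. Without BS2 replicate 2 it had 2 counts in BS2, a BS6 to BS2 ratio of 22120 with a counting interval of 6123 to 182600. Replicate 2 exceeded the mean of replicates 1 and 3 by 6.58 times in the sum over this list. For 9 genes of mature neutrophils, all called, it was 11.8 times, although Il1b, a cytokine that macrophages also make, was highest in replicate 1, at 14.2, 11.4 and 7.31 CPM in BS6. S100a9, a calcium-binding protein of the mature cell, was at 0.466, 0.376 and 0.6401 CPM in BS2 and 426, 8208 and 908 CPM in BS6 (12.64, and 10.40 without BS6 replicate 2). Of the primary granule list Prtn3 was analysed, at 41.1, 1018 and 106 CPM in BS6. Without BS6 replicate 2 Ngp had a BS6 to BS2 ratio of 16510 with a counting interval of 4569 to 136300. The fold change of Prtn3 was 9.43, and 7.04 without that library.

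Red cell genes split into 2 sets that BS6 replicate 2 separated. Of the globin and heme synthesis genes all but Hba-a2 were highest there, with Hbb-bs, an adult beta globin (chr7:103826534-103828096, minus strand), at 355, 108 and 163 CPM in BS2 and 5373, 8156 and 4866 CPM in BS6 (4.88 (standard error 0.55, adjusted p = 2.79e-04)) and Alas2, the first enzyme of erythroid heme synthesis, at 11.9, 5.14 and 7.47 CPM in BS2 and 239, 342 and 266 CPM in BS6 (5.11). Membrane and transcription factor genes of erythroblasts were lowest there. Slc4a1, the anion exchanger band 3 (chr11:102348824-102366203, minus strand), was at 0.233, 0 and 0.142 CPM in BS2 and 166, 20.1 and 137 CPM in BS6, with a fold change of 9.64. Without BS2 replicate 1 it had 2 counts in BS2, a BS6 to BS2 ratio of 1590 with a counting interval of 439.9 to 13130. Klf1, the factor that switches on adult globin, was at 9.72, 0.861 and 5.79 CPM and Ermap, an erythroblast membrane protein, at 34.3, 2.64 and 23.4 CPM in BS6. The BS2 libraries held globin as well, more in replicate 1 than in the others, and without that library the fold change of Hbb-bs was 5.48. Globin genes come in near-identical copies, and the division of counts between them is uncertain. Of the 13 members 10 were higher, and Car2, Tfrc and Epor, which brain also expresses, were not called.

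Platelet genes followed the globins and early B cell genes the erythroblasts. All 7 megakaryocyte and platelet genes were higher (median 4.99) and all were highest in BS6 replicate 2. Pf4, a chemokine stored in platelets, was at 0.641, 0.94003 and 0.213 CPM in BS2 and 68.2, 89.7 and 56.4 CPM in BS6 (6.85, standard error 0.43). Of the early B lineage 8 of 9 genes were higher (median 5.53), and 8 of 10 at 1 CPM or more were lowest in replicate 2. Ebf1, a factor that commits cells to the B lineage, was at 1.98, 3.13 and 3.201 CPM in BS2 and 62.8, 43.5 and 57.6 CPM in BS6 (4.30, standard error 0.25), and Dntt, which adds bases at antigen receptor joints, had 1 count in BS2 and was at 3.41, 0.923 and 5.53 CPM in BS6. Of 10 genes of mature B and plasma cells 8 were higher, and replicate 2 was the highest BS6 library for 5 and the lowest for 4. Ighm, the heavy chain of IgM, was at 11.02, 8.27 and 9.39 CPM in BS2 and 80.2, 80.2 and 122 CPM in BS6 (3.30) and was highest in replicate 3. Igkc, an antibody light chain, was highest in replicate 2, at 33.3, 238 and 39.9 CPM in BS6 (8.63, and 7.13 without BS6 replicate 2). Jchain, which links antibody subunits, was at 1.28, 0.564 and 0.6401 CPM in BS2 and 11.9, 96.3 and 14.4 CPM in BS6 (5.59, and 3.96 without BS6 replicate 2).

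T cell transcripts were few. Cd4 was at 0.816, 0.627 and 0.427 CPM in BS2 and 7.81, 6.27 and 8.46 CPM in BS6 (3.56, standard error 0.29), and Cd2, an adhesion molecule of T cells, had no count in BS2 and was at 3.28, 2.399 and 1.53 CPM in BS6. Trbc2, a T cell receptor constant gene, was lower in BS6, at 6.82, 5.83 and 5.41 CPM in BS2 and 1.97, 2.399 and 0.89 CPM in BS6 (-1.77), against 7 of 8 list members that were higher. Mast cell and eosinophil genes were higher in all 6 members, and their sum was 0.117, 0 and 0.142 CPM in BS2 and 54.6, 135 and 153 CPM in BS6. Mcpt4, a mast cell protease, had no count in BS2 and was at 12.2, 21.96 and 37.7 CPM in BS6, at least 378-fold higher. Prg2, the eosinophil major basic protein, was at 0 in BS2 and at 2.17, 18.9 and 16.7 CPM in BS6, and its call was lost without BS6 replicate 2 (adjusted p = 0.081 from edgeR, at least 150.4-fold higher in place of at least 201-fold).

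Markers of blood stem and progenitor cells gave no common direction. Cd34, which brain endothelium also carries, was at 106, 94.2 and 111 CPM in BS2 and 135, 93.2 and 104 CPM in BS6 and differed by 0.09 on the log2 scale (adjusted p = 0.607 from edgeR). Kit, the receptor of stem cell factor, which cortical neurons also express, was at 41.8, 43.8 and 43.7 CPM in BS2 and 15.1, 41.5 and 16.1 CPM in BS6 and was not called, with -1.46 in place of -0.83 without BS6 replicate 2. Gata2 and Myb, transcription factors of progenitors, were higher, at 3.03, 5.39 and 3.27 CPM in BS2 and 24.4, 38.9 and 28.3 CPM in BS6 and at 0.524, 0.689 and 0.356 CPM against 13.003, 52.6 and 25.3 CPM, and Hlf, a stem cell factor with a high level in neurons, was lower (-3.02). In all, 5 of 9 members were higher and 1 was lower.

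**Figure D3:**
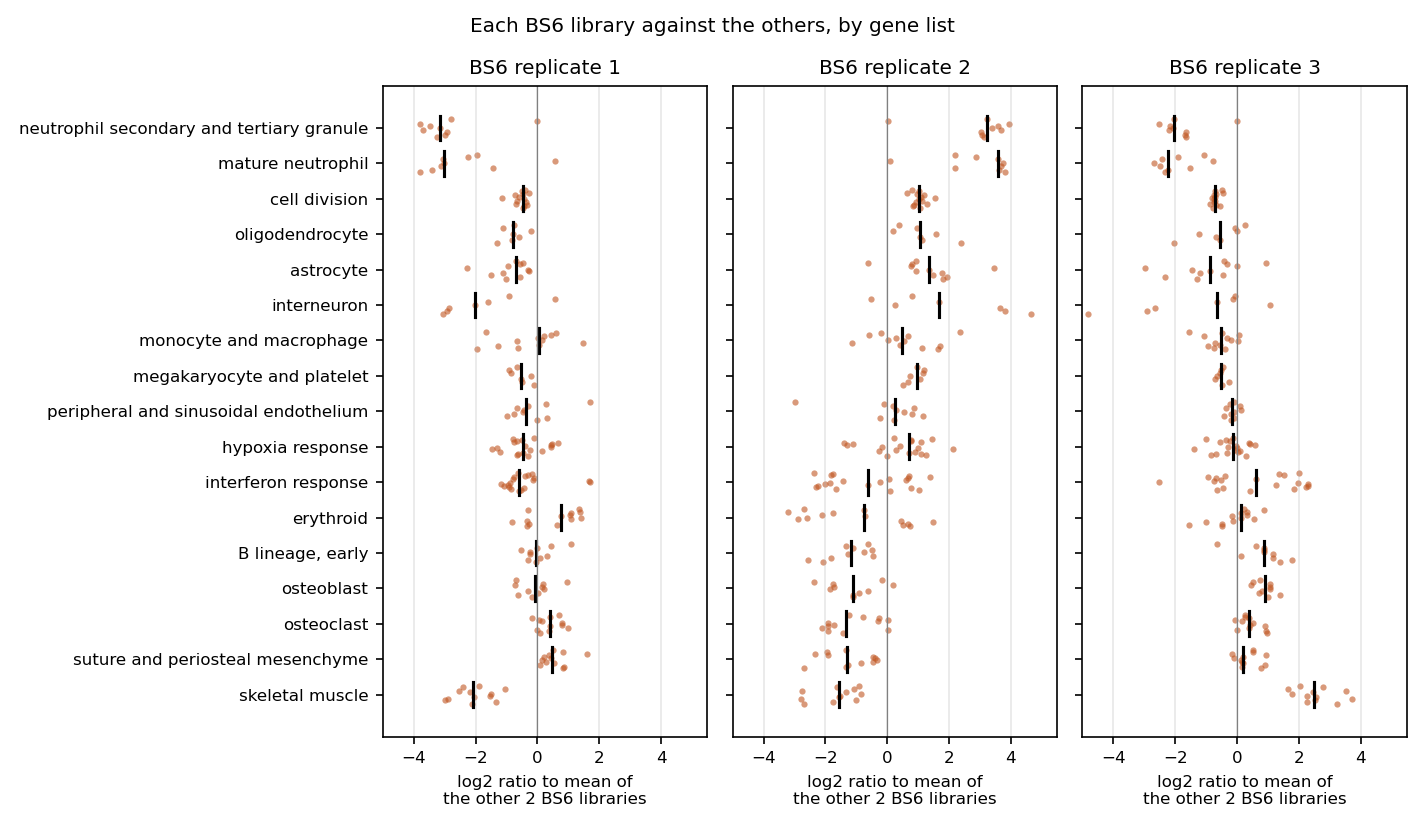
Log2 ratio of each gene's CPM in one BS6 library to its mean in the other 2 (both plus 0.5 CPM), with one panel per library and one row per gene list; points are genes and black bars list medians. Replicate 2 lies to the right for neutrophil, cell division and glial genes and to the left for bone, early B cell and muscle genes, and replicate 3 to the right for muscle genes.

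Macrophage genes were higher in BS6 and microglia genes divided. All 12 monocyte and macrophage genes were called (median 4.90). Lyz2, the lysozyme of macrophages and neutrophils, was at 3.56, 4.57 and 5.41 CPM in BS2 and 1827, 2207 and 969.6 CPM in BS6 (8.53, standard error 0.45), and Ccr2, the chemokine receptor of blood monocytes, was at 0.408, 0.0627 and 0.711 CPM in BS2 and 90.03, 192 and 84.4 CPM in BS6 (8.28, and 8.93 without BS2 replicate 3). Of 9 microglia genes 3 were higher, 3 lower and 3 not called. P2ry12, Sall1 and Siglech, which separate microglia from other macrophages, were the lower ones (-1.72, -1.38 and -2.35), and P2ry12 was at 49.6, 43.3 and 49.2 CPM in BS2 and 12.4, 17.8 and 12.8 CPM in BS6. C1qa and Csf1r, shared by macrophages, were higher (2.56 and 1.94). Tmem119, a microglia marker that osteoblasts make in quantity (chr5:113793729-113800516, minus strand), was at 16.1, 16.2 and 12.8 CPM in BS2 and 198, 133 and 334 CPM in BS6 (3.88 (standard error 0.37, adjusted p = 1.38e-04)). Its lowest BS6 level was in replicate 2, as for 8 of 10 osteoblast genes and, with Tmem119 counted, 6 of 9 microglia genes.

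Vessel genes did not share one direction. Of 8 genes of the brain endothelium 3 were lower, 1 higher and 4 not called, near the shares of all genes. Slco1c1, the thyroid hormone carrier of the blood-brain barrier, was at 58.6, 62.5 and 63.1 CPM in BS2 and 1.44, 4.37 and 1.59 CPM in BS6 (-4.63, and -5.32 without BS6 replicate 2). Of 10 genes of peripheral and sinusoidal vessels 9 were higher (median 4.24). Plvap, the diaphragm protein of fenestrated vessels, was at 14.8, 11.5 and 12.8 CPM in BS2 and 239, 264 and 218 CPM in BS6 (4.20 (standard error 0.15, adjusted p = 4.18e-06)). Meningeal fibroblast genes were found in both groups, and of 10 genes 5 were higher in BS6, 0 lower and 5 not called (median 1.51). Ptgds, prostaglandin D synthase, was at 246, 574 and 507 CPM in BS2 and 97.5, 1147 and 212 CPM in BS6 and was not called, whereas Foxc1, a transcription factor of meninges and skull, was at 3.26, 7.65 and 7.11 CPM in BS2 and 51.2, 99.6 and 89.1 CPM in BS6 (3.74). Within BS2, replicate 1 had the lowest and within BS6 replicate 2 the highest summed level of the 10 meningeal genes (268, 640.5 and 567 CPM and 368, 1706 and 623 CPM). Ptgds made up most of the summed level in BS2.

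Genes of tissue injury were higher in BS6, with Gfap as the exception. Of 20 genes 19 were higher (median 5.69), and Gfap, the intermediate filament of astrocytes, was lower, at 63.6, 73.8 and 74.5 CPM in BS2 and 8.93, 15.2 and 6.36 CPM in BS6 (-2.79). Vim, an intermediate filament of mesenchyme and reactive glia, was at 15.4, 25.4 and 23.97 CPM in BS2 and 1844, 840.4 and 983 CPM in BS6. Lcn2, which reactive astrocytes and neutrophils both make, was at 0, 0.251 and 0.569 CPM in BS2 and 98.05, 2301 and 263 CPM in BS6, in the BS6 order of the neutrophil granule genes, and its fold change of 11.70 was 9.43 without BS6 replicate 2 and 11.05 and 12.73 without BS2 replicates 1 and 3. Replicate 1 led a further set. Hmox1, the heme-degrading enzyme, was at 4.196, 4.83 and 4.84 CPM in BS2 and 239, 50.9 and 44.8 CPM in BS6 (4.59, and 3.38 without BS6 replicate 1), and Ccl2, which recruits monocytes, had 2 counts in BS2 and was at 16.7, 2.46 and 2.42 CPM in BS6. Many of these genes are also expressed by uninjured bone, marrow or macrophages, and uninjured skull was not analysed here.

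Interferon response genes were higher in BS6 in all 19 members tested, with a median of 5.17, but their BS6 levels did not share one order. Isg15, a ubiquitin-like protein induced by type I interferon (chr4:156199424-156200818, minus strand), was at 0.816, 2.01 and 2.49 CPM in BS2 and 23.1, 9.903 and 78.8 CPM in BS6 (4.41 (standard error 0.90, adjusted p = 0.00422), and 3.23 without BS6 replicate 3). Ifit1 and Ifit3, which bind foreign RNA or their partners, were at 21.1, 10.3 and 79.3 CPM and 25.7, 15.4 and 102 CPM in BS6, highest in replicate 3 and lowest in replicate 2, and their fold changes of 5.30 and 4.87 were 4.07 and 3.66 without replicate 3. Genes that interferon gamma also induces had another order. Irf1, a transcription factor, was at 3.61, 5.01 and 4.62 CPM in BS2 and 67.6, 134 and 64.1 CPM in BS6 (4.32, standard error 0.36), and Tap1, a peptide transporter of antigen presentation, was at 2.21, 2.32 and 2.205 CPM in BS2 and 82.9, 135 and 82.5 CPM in BS6 (5.47, standard error 0.26), both highest in replicate 2. Cxcl9, a chemokine induced by interferon gamma, had no count in BS2 and was at 33.2, 15.7 and 3.88 CPM in BS6, highest in replicate 1, and its call was lost without BS6 replicate 2 (adjusted p = 0.0792 from edgeR, at least 287.5-fold higher in place of at least 273-fold, and at least 155-fold without BS6 replicate 1). Replicate 3 was highest for 11, replicate 2 for 6 and replicate 1 for 2 of 19 members. Oas1a was the member with no count in BS6, against 17 counts in BS2, too few to be tested.

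**Figure D4:**
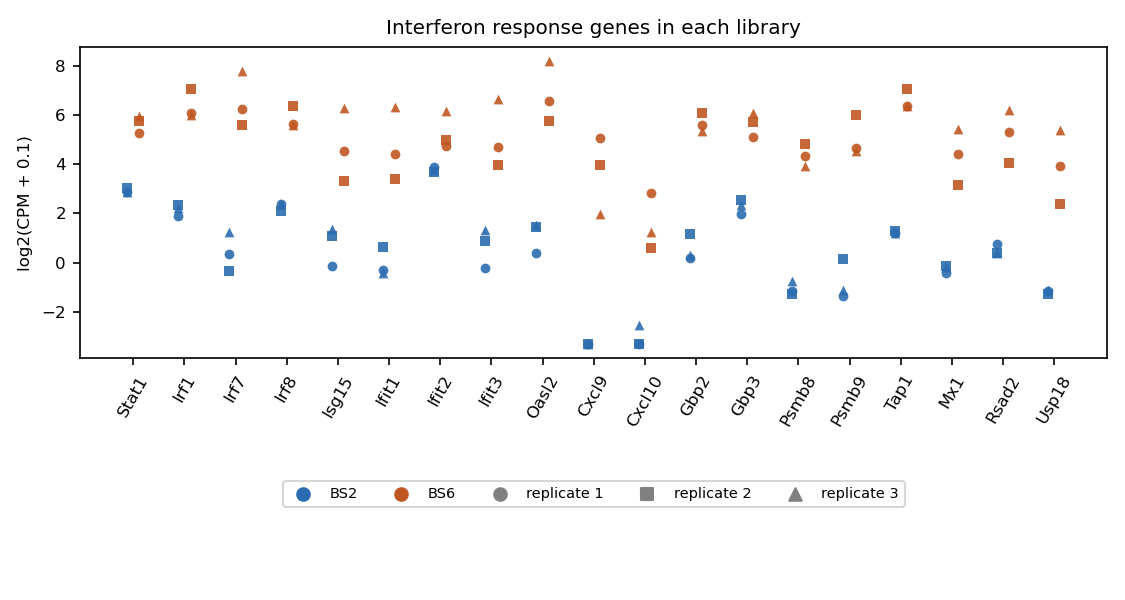
Level of each of the 19 interferon response genes tested in each library, as log2 of CPM plus 0.1; blue marks BS2, orange BS6, and the shape the replicate. BS6 replicate 3 (triangles) is highest for Isg15, Ifit1, Ifit3, Oasl2, Mx1, Rsad2 and Usp18, and replicate 2 (squares) for Irf1, Irf8, Gbp2, Psmb8, Psmb9 and Tap1.

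The promoters of these members are shown because the genes moved together between the groups. The letters TTTC, any 2 bases and a further TTTC, the core of the site that interferon-activated factors bind, were searched on both strands in the 250 bases before each RefSeq gene start (build GRCm38.p6). A gene was counted where any of its promoters held the letters. They were found in 8 of 17 interferon members with a promoter in the table, among them Oas1a, which was not tested. The share was 3.22% of 12221 tested genes with a promoter and 4.81% of those called higher. Below, capitals mark the first match, written along the gene's own strand, so that a match on the opposite strand reads as its reverse complement. The windows lie at chr4:156200862-156200921 (minus strand), chr19:34640760-34640819 (plus), chr19:34583348-34583407 (plus), chr12:26456538-26456597 (minus) and chr3:142620579-142620638 (plus), with the match starting 78, 104, 156, 120 and 59 bases before the gene start.
Isg15: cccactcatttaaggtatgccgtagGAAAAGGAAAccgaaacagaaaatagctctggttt
Ifit1: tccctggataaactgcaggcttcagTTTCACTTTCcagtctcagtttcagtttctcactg
Ifit3: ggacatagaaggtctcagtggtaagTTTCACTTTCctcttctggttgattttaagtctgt
Rsad2: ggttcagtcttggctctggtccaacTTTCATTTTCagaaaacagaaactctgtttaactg
Gbp2: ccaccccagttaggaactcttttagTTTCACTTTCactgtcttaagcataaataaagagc
A match of letters is a description of the window and no evidence of binding. Isg15, Ifit1, Ifit3 and Rsad2, led by BS6 replicate 3, and Gbp2, led by replicate 2, all held it.

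In the neutrophil granule list the letters TTGCNNAA, a core shared by sites of the C/EBP factors, were in 4 of 8 members with a promoter. The share of tested genes with a promoter was 9.03%. The windows of 3 members, which BS6 replicate 2 led, lie at chr9:110419645-110419702 (plus strand), chr9:111019192-111019249 (plus) and chr2:32387923-32387980 (minus), with the match in capitals.
Ngp: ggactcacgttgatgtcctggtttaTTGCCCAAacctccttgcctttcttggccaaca
Ltf: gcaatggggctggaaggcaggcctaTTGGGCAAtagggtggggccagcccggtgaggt
Lcn2: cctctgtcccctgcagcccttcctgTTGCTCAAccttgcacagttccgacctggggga
Of 7 neuron members with a promoter 1 held TTCAGCACC, against 0.409% of tested genes with a promoter. It was the synaptic vesicle gene Syn1, at chrX:20921117-20921168 (minus strand). The letters are part of the site of the REST repressor that keeps neuronal genes silent outside neurons. Syn1 itself was at 519, 552 and 534 CPM in BS2 and 4.597, 7.26 and 4.13 CPM in BS6.
Syn1: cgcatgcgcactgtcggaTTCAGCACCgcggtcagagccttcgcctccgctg
The erythroid letters AGATAA were in 4 of 10 members of that list against 7.33% of tested genes with a promoter. CCAAT was in 12 of 13 of the cell division list against 39.7%. ACCACA, the core of Runx sites, was in 2 of 8 of the osteoblast list against 13.1%. The median number of CpG pairs per promoter was 11 for genes higher in BS6, 14 for genes lower and 17 for genes not called, over 12221 tested genes with a promoter.

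Genes of dividing cells were higher in BS6 throughout. All 14 were called (median 6.11), all 14 were highest in replicate 2, and their sum was 19.3, 19.99 and 19.1 CPM in BS2 and 569, 1096 and 516 CPM in BS6. Mki67, present in every phase of the cycle but not at rest, was at 0.991, 0.376 and 1.07 CPM in BS2 and 163, 316 and 139.9 CPM in BS6 (7.98, standard error 0.54), and Top2a, which untangles DNA before division, was at 0.583, 0.94003 and 0.925 CPM in BS2 and 88.5, 155 and 83.7 CPM in BS6 (7.06). The hypoxia list gave no common direction, with 8 higher, 4 lower and 8 not called, and a sum of 2207 to 2341 CPM in BS2 and 2149 to 2352 CPM in BS6. Its higher members were partly matrix genes, such as Lox, the collagen cross-linking enzyme, at 0.524, 1.13 and 1.49 CPM in BS2 and 732, 266 and 653 CPM in BS6 (9.05). Its lower ones were genes of energy use, such as Bnip3, a mitophagy receptor, at 43.9, 43.6 and 47.02 CPM in BS2 and 10.4, 13.3 and 11.3 CPM in BS6 (-1.94). Genes of energy use were not all lower, as the glycolysis genes Hk2 and Pfkfb3 were higher (3.38 and 1.17). The fold change of Pfkfb3 was 0.87 without BS6 replicate 2. Vegfa, the vessel growth factor, was not called, at 97.3, 95.9 and 93.5 CPM in BS2 and 68.03, 78.9 and 89.1 CPM in BS6.

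Some abundant genes lay level across the groups. By the rule for genes nearest to no change, Srrm2, a splicing factor, was at 858, 961 and 1000.4 CPM in BS2 and 954, 1019 and 969 CPM in BS6 (0.06, standard error 0.12), Prrc2a was at 339, 365 and 368 CPM in BS2 and 377, 368 and 385 CPM in BS6 and Eif4g2, a translation factor, at 712, 734 and 754 CPM in BS2 and 679.6, 695 and 706 CPM in BS6. A small mean difference could hide a split within BS6. Gpi1, a glycolytic enzyme, was at 384, 378 and 368 CPM in BS2 and 184, 778 and 196 CPM in BS6, its replicate 2 above and its other libraries below every BS2 library, and Maged1 had the reverse, at 607, 243 and 556 CPM against 446, 445 and 431 CPM in BS2. Of 20 genes often taken as references 7 were higher and 3 lower, near the shares of all genes. Tbp, part of the general transcription machinery, was at 38.1, 34.8 and 37.3 CPM in BS2 and 28.2, 32.5 and 30.5 CPM in BS6 and was not called, while B2m, the light chain of class I antigen presentation, was at 33.8, 37.5 and 37.8 CPM in BS2 and 1002, 815 and 804 CPM in BS6 (4.59, standard error 0.16) and Actb at 619.6, 679.6 and 597 CPM in BS2 and 1472, 3678 and 1426 CPM in BS6 (1.79, and 1.20 without BS6 replicate 2).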

How the data were processed

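The libraries BS2 and BS6, both labelled as skull tissue, were profiled by poly(A) RNA-seq, sequenced from both ends. After cleaning with fastp and mapping to mm10 with HISAT2 2.1.0, the authors deposited raw, unnormalized read counts for each gene symbol. The counting program, its annotation and its use of strand are not given in the sources used here, nor whether the counts precede the study's ComBat_seq batch correction. Overlapping, antisense and near-identical genes are therefore uncertain. The table held 22317 symbols, all naming a gene and each with a total of at least 2 counts over the 12 libraries, and 22022 were found in GENCODE M21, which gave the coordinates.

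The 6 libraries were fitted together with edgeR 4.0.16 (R 4.3.3), with a filterByExpr minimum of 10 counts, TMM factors and robust dispersion, and the quasi-likelihood p-values were adjusted by the Benjamini-Hochberg method. Standard errors are the log2 fold change over the square root of F. Where a group had no count, the fold was computed against a floor of 3 counts over the group (0.0636 CPM in BS2), and with 1 to 3 counts a ratio with an exact 95% interval is given. Floors and intervals cover counting error only. Alternatives were DESeq2 1.42.0, limma 3.58.1 voom with quality weights, other factors and filters, all 12 libraries, the replicate block, and leaving out each library.

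The members and gene lists, written from general knowledge, were chosen with earlier results of these data known, so no list was tested as a set. Symbols of a list that were not in the table were not analysed here. Genes were named by a rule: the 10 largest and 10 smallest fold changes among non-overlapping called genes that averaged 100 CPM or more in either group, the 10 most abundant genes of each group, the 10 nearest to no change at 300 CPM or more in both groups, the leading and discordant members of each list, and members that one BS6 library set apart. Other list members, ribosomal protein and mitochondrial genes were named after their values were seen. Some list members are counted in their lists and not reported here by name. Promoters are those of RefSeq.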

Additional observations from a re-analysis of the deposited data

How the results depend on the processing

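The counts of 5020 higher and 4590 lower genes stayed within 1.5 times under all alternatives. The fewest were called with at least 10 counts in every library (3461 and 3105 of 13661 tested) and the most by the adjusted p alone (6614 and 6367). Without single libraries 4929 to 5129 were higher and 4496 to 4808 lower, and 4813 and 4418 of the genes called in all libraries were also called without BS6 replicate 2. DESeq2 gave 5465 and 5061 and voom with quality weights, in which BS6 replicate 2 had a weight of 0.15 against 0.804 and 1.30 for replicates 1 and 3, 5014 and 4707. No gene was called with the opposite sign under any alternative (0 in each).

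Same-numbered libraries of BS2 and BS6 did not deviate together (correlations of 0.0025, 0.0017 and 0.0266 across 17311 genes for numbers 1, 2 and 3), so no pairing by number was seen. The 2 groups differed in tissue content, so these correlations cannot exclude a pairing. With the replicate block 4910 genes were higher and 4596 lower, and 4894 and 4536 of them were also called without it.

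Among 426 list members and other named genes tested, 12, 14 and 12 lost their call without BS2 replicates 1, 2 and 3, and 3, 7 and 6 without BS6 replicates 1, 2 and 3. With 2 libraries left in a group, the spread rests on the other genes and the other group. The largest shift of the median of all genes by another scaling was 0.075 on the log2 scale, with upper-quartile factors.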

Other observations

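Ribosomal protein and mitochondrial genes, looked at after the other results were seen, went different ways. Of 85 ribosomal protein genes tested 66 were higher in BS6 and 0 lower, with a median log2 fold change of 1.68, although genes with many near-identical copies are uncertain in counts of this kind. Of 16 mitochondrial genes tested 0 were higher and 2 lower (median -0.41), and their share of counts was 5.89% to 7.07% in BS2 and 4.05% to 6.46% in BS6. The 10 genes with the most counts took 6.995% to 8.07% of the counts in BS2 and 12.5% to 23.9% in BS6, where replicate 2 had the lowest share.

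Nuclear noncoding RNAs separated as well. Meg3, a maternally expressed RNA abundant in neurons, was at 6401, 5739 and 6381 CPM in BS2 and 361, 373 and 192 CPM in BS6 (-4.32, standard error 0.31), and Neat1, the scaffold of paraspeckles, was at 63.2, 90.5 and 79.6 CPM in BS2 and 1201, 1523 and 1191 CPM in BS6 (4.07, standard error 0.21). Malat1 was at 742, 603 and 645 CPM in BS2 and 422, 373 and 386 CPM in BS6 and was not called.

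Skin genes were low in both groups, at 13.3 to 18.8 CPM in BS2 and 18.3 to 24.2 CPM in BS6 for the sum of 8 genes. Ttr, a secreted protein of the choroid plexus, had 1 count in BS2 and was at 0.394, 19.3 and 58.1 CPM in BS6, too uneven to be tested. Gpx3, a secreted glutathione peroxidase and one of the 10 most abundant genes of BS6, was at 3.21, 3.76 and 3.49 CPM in BS2 and 4880.2, 4190 and 5155 CPM in BS6 (10.41, standard error 0.23) and was nearly equal in the BS6 libraries. Of the 4 Y-linked genes tested 0 were called, and Xist was at most 0.445 CPM in any library.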
